A study of Oncorhynchus mykiss with 6 samples.

Results

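The miR-125 family was followed in dorsal skin of rainbow trout, in wild-type fish (WR_S) and in yellow mutants (YR_S). Its members were all entries of the deposited miRNA table whose name reads miR-125 after the species prefix, with every arm, letter and length variant included. There were 22 such entries of 1426, and they held 17 distinct sequences, 9 from the 5p arm (13 entries) and 8 from the 3p arm (9 entries). The rule read names only and no measured value, though it was set with earlier results of these data known.

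MicroRNAs are short RNAs that guide Argonaute proteins to messenger RNAs, mainly by pairing of the seed, which is bases 2 to 8 of the miRNA. The miR-125 family is the vertebrate counterpart of lin-4, the founding miRNA of Caenorhabditis elegans, and in mammals it is known for roles in haematopoietic stem cells, macrophages and the differentiation of keratinocytes. Its genes lie in vertebrates in clusters with miR-99 or miR-100 and let-7. Each hairpin gives a 5p and a 3p strand, and the 5p strand is the usual guide strand of this family.

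WR_S were trout with the wild-type genotype and black skin, and YR_S were yellow mutants, which the study describes as lacking melanocytes and having fewer xanthophores. All fish were female, 12 months post hatching and kept in the same flowing-water pond. The gene behind the mutant was not named in the sources used here. Each group had 3 small RNA libraries from 3 dorsal skins, so the comparison asked whether miRNAs of mutant skin differed from those of wild-type skin.

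The libraries held between 1442631 (YR_S replicate 1) and 5089802 (WR_S replicate 1) counts, and 3 counts stood for 0.589 to 2.08 counts per 1000000 counts (CPM). Levels are CPM scaled by TMM library sizes, as mean ± SD with n = 3 per group where a mean is given, and the 3 values of a group follow the order of its replicate numbers. The skin label was set beside 35 entries of epithelial miRNAs (the miR-200 group, miR-203 and miR-205). Of these 25 were above 0 in every library, and the 35 summed to between 23184 and 36672 CPM. No other tissue was compared, so these levels cannot tell skin from another epithelial tissue. WR_S replicate 3 stood apart in markers of other tissues. Its liver miRNA miR-122 (2 entries, both above 0 in every library) summed to 3404 CPM against 5.86 to 51.3 CPM in the other libraries, and its muscle miRNAs (21 entries of miR-1, miR-133, miR-206 and miR-499, 13 above 0 in every library) summed to 12616 CPM against 2007 to 6964 CPM. In bulk skin, fewer cells of a type and less RNA per cell cannot be told apart.

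Both 5p sequences that carried most of the family, the first and the last below, are shown with rarer variants. The seed is in capitals, because the family divides into forms that share this seed and differ after it. All sequences are read 5′ to 3′ from the deposited table, which writes T for U.
ssa-miR-125a-5p: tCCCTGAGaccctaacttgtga
dre-miR-125b-5p_R+1: tCCCTGAGaccctaacttgtgat
sha-miR-125a_R+2: tCCCTGAGaccctaacttgtgaaa
ami-miR-125b-5p_R+1_1ss22AT: tCCCTGAGaccctaacttgtgtt
dre-miR-125b-5p_L+2R-1: aATCCCTGagaccctaacttgtg
ssa-miR-125b-5p_R-1: tCCCTGAGacccttaacctgtg

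The first and the last of these sequences shared their first 13 bases and were 3 edits apart over the whole length. They are called the CTAAC form and the TTAAC form below, after the bases where they part. Letters in the names do not follow this split. The sequence of the CTAAC form is entered as ssa-miR-125a-5p (Atlantic salmon), tni-miR-125b (a pufferfish) and gmo-miR-125b-5p (Atlantic cod), while the TTAAC form is entered as ssa-miR-125b-5p_R-1 and gmo-miR-125a-5p_R-1. In an entry name L and R give bases gained or lost at the left and right end, and ss gives a substitution. The lin-4 seed CCCTGAG was held by 11 entries with 7 sequences, and 0 entries outside the family had it. Both entries extended at the 5′ end have the seed ATCCCTG instead, in which the pairing bases are shifted.

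The 3p sequences are shown because they split into other seed groups and because the first and second of them varied strongly between libraries.
oni-mir-125b-2-p3: aCGGGTTAggctctcgggagct
ssa-miR-125a-2-3p: aCGGGTTAggctcttgggacgc
ssa-miR-125a-3p: aCGGGTTGggttctcgggagct
ssa-miR-125b-2-3p_L+1: aCAGGTGAggtccttgggaac
ssa-miR-125b-1-3p_R+1_1ss6TC: aCAGGCGAggtcctcgggaac

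The 8 sequences of the 3p arm had 5 distinct seeds, none of which is the lin-4 seed. Those that start ACGGGTT and those that hold CAGG at or next to their first base formed separate sets, and oni-mir-125b-2-p3 and ssa-miR-125b-2-3p_L+1 were 7 edits apart.

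The family was among the abundant miRNAs of trout skin in both groups. Summed over its 22 entries it made 4.39%, 4.69% and 5.39% of all counts across WR_S, and 5.05%, 4.45% and 6.24% across YR_S. The groups overlapped, and YR_S replicate 3 was the highest library. With identical sequences added together, the CTAAC form ranked 6 and the TTAAC form 21 by mean level among 1280 sequences. The first 3p sequence, oni-mir-125b-2-p3, ranked 103.

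The CTAAC sequence itself, summed over its 3 entries with identical counts, stood at 34772, 35996 and 41044 CPM across WR_S. In YR_S replicates 1, 2 and 3 it stood at 38089, 43058 and 55107 CPM. YR_S was 1.22-fold higher by the means, but YR_S replicate 1 lay below WR_S replicate 3. The log2 fold change was 0.29 ± 0.20 SE with a 95% interval of -0.17 to 0.74, and edgeR's quasi-likelihood test gave an adjusted p of 0.736 for each of the 3 entries. A change of the main miR-125 of skin was thus not shown, and the interval left room for a fold between 0.892 and 1.67.

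The TTAAC sequence, summed over its 2 entries, was at 7309, 7518 and 8948 CPM across WR_S and at 7925, 5363 and 8939 CPM across YR_S. Only YR_S replicate 2 lay below all WR_S libraries. Its log2 fold change was -0.10 ± 0.23 SE (95% interval -0.63 to 0.44, edgeR adjusted p = 0.943).

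**Figure D1:**
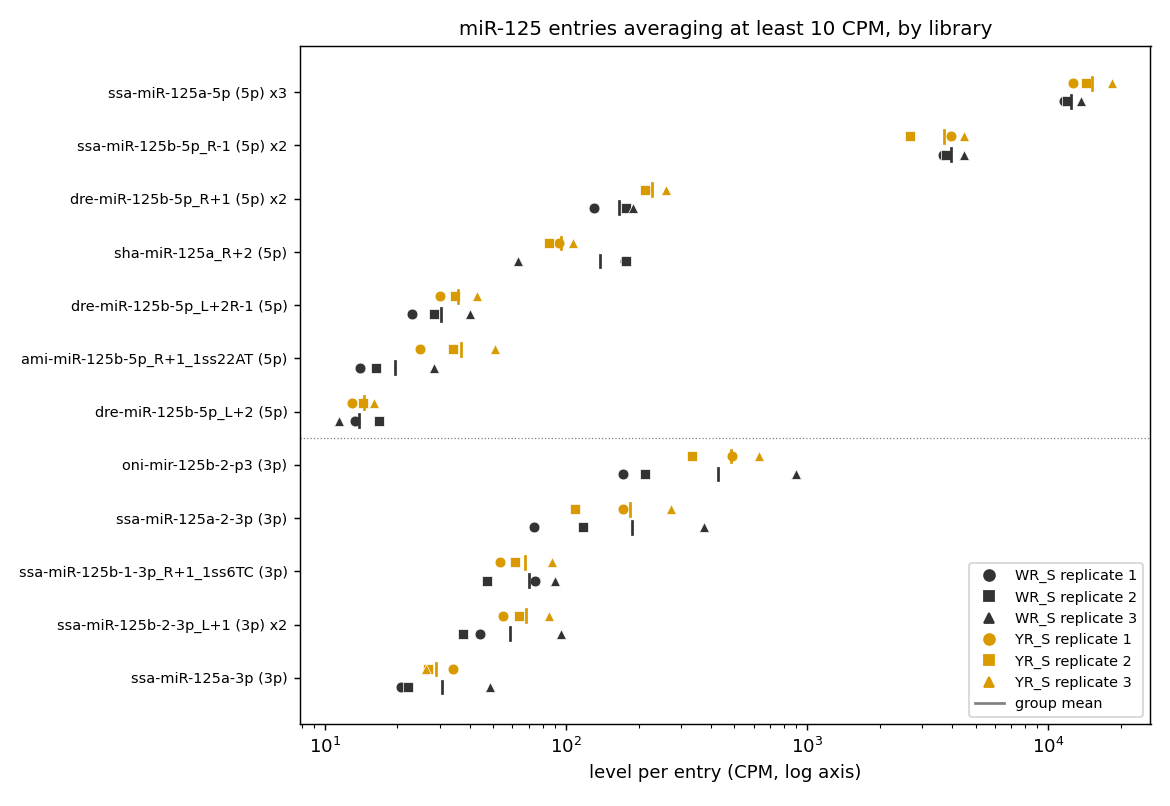
Level of each miR-125 entry averaging at least 10 CPM, in CPM per entry on a log axis, with 1 point per library and a bar at each group mean; entries with identical counts are drawn once with their number (x2, x3), and the dotted line parts 5p from 3p. The 5p entries ssa-miR-125a-5p and ssa-miR-125b-5p_R-1 lie close together across libraries, whereas WR_S replicate 3 is far above the other WR_S libraries for oni-mir-125b-2-p3 (902 CPM against 172 and 212 CPM).

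The balance of both forms varied less among the WR_S libraries than among the YR_S libraries. Of all 5p counts the TTAAC form made 17.17%, 17.04% and 17.72% across WR_S. It made 17.005%, 10.94% and 13.80% across YR_S. YR_S replicate 1 sat beside the WR_S libraries, just below the lowest of them, and the other YR_S libraries were lower. The groups thus did not overlap, but only by this narrow gap. The mean difference of -3.40 percentage points went to -1.91 without YR_S replicate 2. This share was not tested, since it is a score over members.

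Length variants of the CTAAC form were rare. The exact sequence made between 98.4% and 98.8% of that form in every library. The variant with 1 added T, summed over its 2 entries with identical counts (dre-miR-125b-5p_R+1 and dre-miR-125c-5p_R+1_1ss18CT), stood at 262, 354 and 378 CPM across WR_S and at 428.96, 424 and 517 CPM across YR_S. Here every YR_S library was above every WR_S library. These were the only tested members whose groups did not overlap, 2 of 19 tested entries with 1 count pattern, and 17.3% of all 1085 tested entries did not overlap either (8.29% with YR_S higher). The log2 fold change of 0.46 ± 0.25 SE (95% interval -0.11 to 1.04) did not pass, with an edgeR adjusted p of 0.607. As a share of the CTAAC form the variant overlapped between the groups, at 0.743% to 0.968% in WR_S and 0.927% to 1.11% in YR_S.

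The variant ending in TT, ami-miR-125b-5p_R+1_1ss22AT, was at 13.96, 16.2 and 28.4 CPM across WR_S and at 24.7, 34.0 and 50.9 CPM across YR_S. The groups overlapped through WR_S replicate 3 and YR_S replicate 1. It had the smallest p of the family, 0.0578 unadjusted and 0.500 adjusted in edgeR, with a log2 fold change of 0.92 ± 0.42 SE (95% interval -0.04 to 1.88). The variant with AA at its end, sha-miR-125a_R+2, went the other way in the means, with 176, 177 and 63.3 CPM across WR_S and 93.7, 85.3 and 107 CPM across YR_S. WR_S replicate 3 was the lowest of all 6 libraries, below YR_S, while the other WR_S libraries were the highest. The log2 fold change was -0.54 ± 0.40 SE (edgeR adjusted p = 0.779). Whether the added bases come from the trout genome or were added after processing was not tested.

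Both entries starting AA, in which the seed is shifted, were scarce and even. They summed to 36.2, 45.0 and 51.5 CPM across WR_S and to 43.0, 49.0 and 58.6 CPM across YR_S. Their groups overlapped, and dre-miR-125b-5p_L+2R-1 and dre-miR-125b-5p_L+2 had log2 fold changes of 0.24 ± 0.33 SE and 0.06 ± 0.34 SE.

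**Figure D2:**
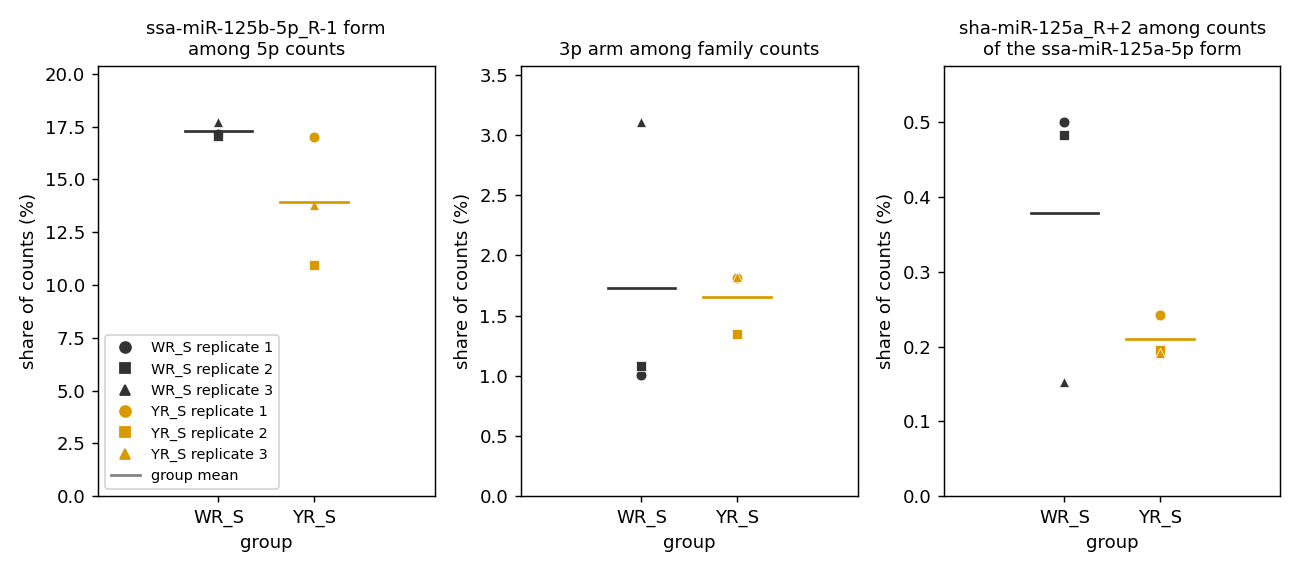
Shares of counts in percent for each library, with 1 point per library and a line at each group mean: the TTAAC form (ssa-miR-125b-5p_R-1 and its longer variant) among 5p counts, the 3p arm among all family counts, and sha-miR-125a_R+2 among counts of the CTAAC form. WR_S replicate 3 is apart from the other WR_S libraries in the panels of the 3p arm and of sha-miR-125a_R+2, at 3.11% and 0.152%, and YR_S replicates 2 and 3 are low in the first, at 10.94% and 13.80%.

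The 3p total varied more than the 5p total, and mainly within WR_S. Summed over its 9 entries it stood at 434, 480 and 1619 CPM across WR_S and at 858, 667 and 1199 CPM across YR_S. WR_S held both the lowest libraries and the highest one, so the means of 845 ± 671 and 908 ± 270 CPM hardly differed. There were 98.1, 91.8 and 31.2 counts of the 5p arm per count of the 3p arm across WR_S, and 54.3, 73.5 and 54.0 across YR_S. The 5p arm moved little in WR_S replicate 3 (50515 CPM against 42571 and 44106 CPM), and the low ratio of that library went with its high 3p arm.

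The most abundant 3p entry, oni-mir-125b-2-p3, was at 172, 212 and 902 CPM across WR_S and at 489, 333 and 635 CPM across YR_S. ssa-miR-125a-2-3p, which shares its seed CGGGTTA and its first 14 bases, was at 73.6, 118 and 374 CPM across WR_S and at 172, 109 and 274 CPM across YR_S. In both entries WR_S replicate 3 was the highest library and WR_S replicate 1 the lowest. The highest library was 5.25 and 5.09 times the lowest, against a median of 1.80 over the 257 entries averaging at least 100 CPM and 1.58 for ssa-miR-125a-5p. The log2 fold changes between groups were 0.18 ± 0.61 SE and -0.03 ± 0.61 SE, with 95% intervals of -1.23 to 1.59 and -1.42 to 1.37 (edgeR adjusted p = 0.983 and 0.997).

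WR_S replicate 3 was at 4.69 times the mean of the other WR_S libraries for oni-mir-125b-2-p3 and at 3.90 times for ssa-miR-125a-2-3p. The median of this ratio over the 257 entries was 1.02, and 7 of them reached 3. The other 5, named here after their values were seen, were ssa-miR-122-5p_R+1 and xla-miR-122-5p_R+2 of liver, ssa-miR-206-3p and ssa-miR-1-3p of muscle, and ssa-let-7b-3p_1ss22CT. The last is a 3p entry of a cluster partner, at 210, 239 and 789 CPM across WR_S and at 356, 149 and 528 CPM across YR_S. The part of liver or muscle RNA in the level of the 3p arm was not tested.

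The other 3p entries averaging at least 10 CPM, those of the CAGG set and ssa-miR-125a-3p, were lower, and their highest library was between 1.92 and 2.54 times their lowest. ssa-miR-125b-2-3p_L+1, which has the same sequence and counts as gmo-miR-125a-3p_R-1, was at 43.9, 37.5 and 95.1 CPM per entry across WR_S and at 54.7, 63.9 and 85.4 CPM across YR_S. ssa-miR-125b-1-3p_R+1_1ss6TC ranged from 46.9 to 90.0 CPM in WR_S and from 53.4 to 87.8 CPM in YR_S. ssa-miR-125a-3p, which starts ACGGGTT like oni-mir-125b-2-p3 and whose seed CGGGTTG differs in its last base, ranged from 20.7 to 48.5 CPM in WR_S and from 26.3 to 33.8 CPM in YR_S. WR_S replicate 3 was the highest library in each of these entries, and the groups overlapped in each, with log2 fold changes of 0.21 ± 0.41 SE, -0.05 ± 0.34 SE and -0.08 ± 0.40 SE.

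The remaining members averaged under 10 CPM. dre-miR-125b-1-3p_R+1_2ss11TC15TC, which extends oni-mir-125b-2-p3 by 1 base, was at 3.47, 3.82 and 12.5 CPM across WR_S and at 0, 6.89 and 4.82 CPM across YR_S. dre-mir-125a-2-p3_1ss22CA held at most 8 counts in a library. There were 3 entries above 0 in fewer than 3 libraries, which were not tested. They were dre-mir-125a-2-p3_1ss22CT, ssa-miR-125b-5p_R+1 and cgr-miR-125a-5p_R-2, with at most 7, 4 and 4 counts in any WR_S library and 0 in all YR_S libraries, where a count of 0 allows up to 3 counts. All 3 entries were also at 0 in WR_S replicate 2. They were too scarce for their absence from YR_S to be read as a difference.

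Over all 1085 entries tested, edgeR called 0 at an adjusted p below 0.05 (percent called 0), and so 0 of the 19 tested members. At an unadjusted p below 0.05 it gave 113 entries (10.4%), of which 0 were members, and DESeq2 called 36 of the 976 entries to which it gave an adjusted p (3.69%) below 0.05, again with 0 members. The study's thresholds for miRNAs ask for an unadjusted p below 0.05 and a log2 change of 1 or more in either direction. At these edgeR gave 89 entries (8.2%), 1.75% higher and 6.45% lower in YR_S, and 0 members. DESeq2 gave 87 entries and 0 members. These counts come from the fits made here and differ from the count that the study reported. The fold was above 1 for 11 and below 1 for 8 of the 19 members, with a median log2 fold change of 0.18, against -0.03 over all entries, of which 47.4% were above 1. The 5p entries had 8 higher and 3 lower with a median of 0.29, and the 3p entries 3 higher and 5 lower with a median of -0.04. Entries that share a sequence also share counts, and the 19 members held 14 distinct count patterns. The directions and medians above count every entry, so the CTAAC sequence, with a fold above 1, enters 3 times. They therefore do not show a tilt of the family by distinct sequence.

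**Figure D3:**
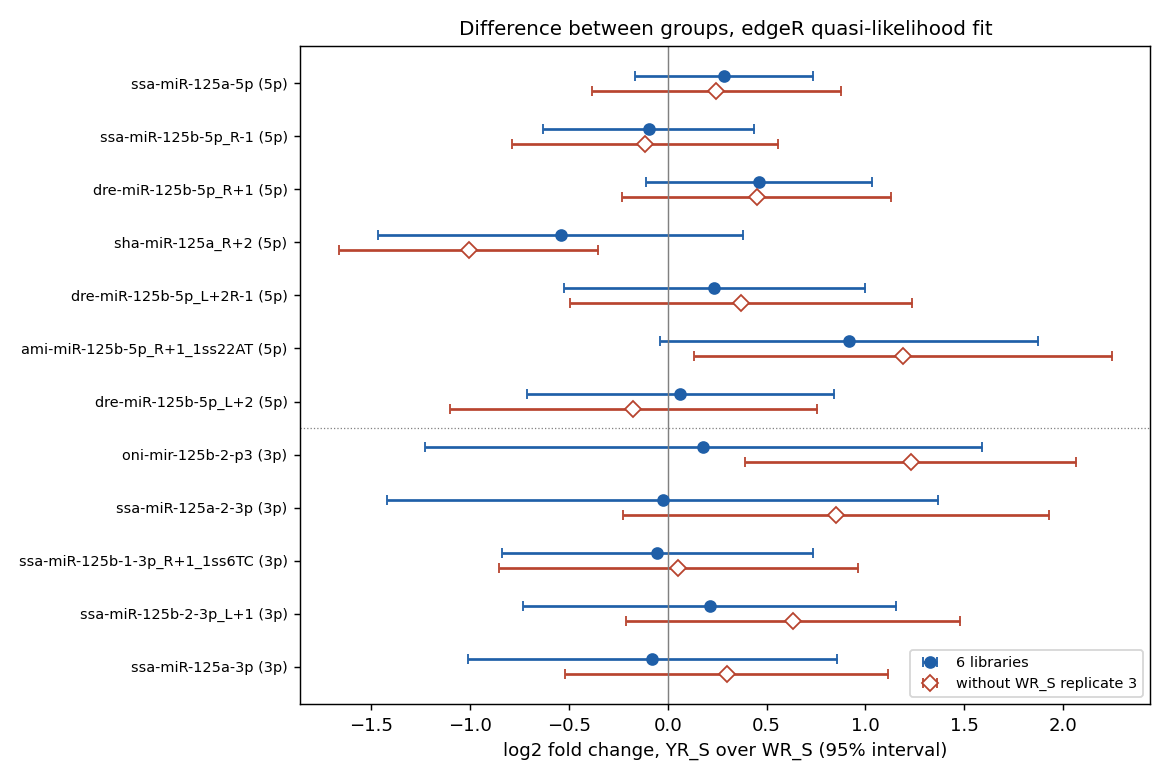
Log2 fold change of YR_S over WR_S with its 95% interval for each miR-125 entry averaging at least 10 CPM, from edgeR with all 6 libraries (filled circles) and without WR_S replicate 3 (open diamonds). All intervals from 6 libraries span 0, while 3 of those without WR_S replicate 3 do not: oni-mir-125b-2-p3 (0.39 to 2.07) and ami-miR-125b-5p_R+1_1ss22AT (0.13 to 2.25) above 0, and sha-miR-125a_R+2 (-1.66 to -0.35) below 0. WR_S replicate 3 was the highest or the lowest WR_S library in each of these 3 entries.

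Because WR_S replicate 3 stood apart in liver and muscle markers, the fit was repeated without it, an alternative in which 1001 entries were tested. The 3p total was then 457 CPM in WR_S as a mean of 2 libraries, and YR_S was 1.99-fold higher. WR_S replicate 3 held the highest 3p total of all libraries, so leaving it out had to raise this ratio. With all 6 libraries the ratio was 1.08, and its log2 value was -0.21 without WR_S replicate 1 and -0.18 without WR_S replicate 2. The median of the 8 tested 3p entries was 0.47 on the log2 scale, against -0.11 for all entries of that fit. Among these 3p entries, ssa-miR-125b-2-3p_L+1 and gmo-miR-125a-3p_R-1 share their counts. The library left out was the highest in every 3p entry averaging at least 10 CPM, so an upward shift of the 3p arm was built into this fit. At the study's thresholds 3 of the 19 members were then past, against 7.59% of all entries (1.6% for those higher in YR_S). They were oni-mir-125b-2-p3 (log2 fold change 1.23 ± 0.36 SE, edgeR adjusted p = 0.358), ami-miR-125b-5p_R+1_1ss22AT (1.19 ± 0.46 SE, adjusted p = 0.421) and sha-miR-125a_R+2 (-1.01 ± 0.28 SE, adjusted p = 0.358), so 2 of the 3 were higher and 1 lower, and none passed the adjustment. In each of these 3 entries WR_S replicate 3 was the highest or the lowest WR_S library. For the CTAAC form the log2 fold change in the fit without that library was 0.25 ± 0.27 SE, and for the TTAAC form -0.12 ± 0.29 SE.

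The cluster partners were compared in the fit of all 6 libraries. miR-99 and miR-100, which share a seed of their own, and let-7, which targets growth and timing genes, had 81 entries, of which 75 were tested. Of these tested entries, which held 53 distinct count patterns, 46 had a fold above 1 and 29 below 1, and 47.4% of all entries were above 1. Their median log2 fold change was 0.08, and 0 were past the study's thresholds (8.2% of all entries were). Most of them were let-7, with 38 higher and 22 lower (median 0.08). For miR-99 there were 5 higher and 3 lower (0.02), and for miR-100 3 higher and 4 lower (-0.04). The leading entries were gmo-miR-99-5p_R-1 (8308 ± 1284 CPM in WR_S and 8428 ± 722 CPM in YR_S), ssa-miR-100a-5p (47882 ± 9469 and 52561 ± 9482 CPM) and ola-let-7a (8479 ± 1006 and 9539 ± 1036 CPM). Each group of partners overlapped between WR_S and YR_S, as the miR-125 5p arm did. By arm, the 26 let-7 3p entries came to 963, 1079 and 2179 CPM across WR_S and to 1422, 879 and 1857 CPM across YR_S. Like the miR-125 3p arm they were highest in WR_S replicate 3 and next in YR_S replicate 3. The 3 miR-100 3p entries were also highest in WR_S replicate 3 (147 CPM), followed by YR_S replicate 2 (129 CPM), whereas the 1 miR-99 3p entry was highest in WR_S replicate 1 (6.93 CPM, against 6.14 CPM in WR_S replicate 3).

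**Figure D4:**
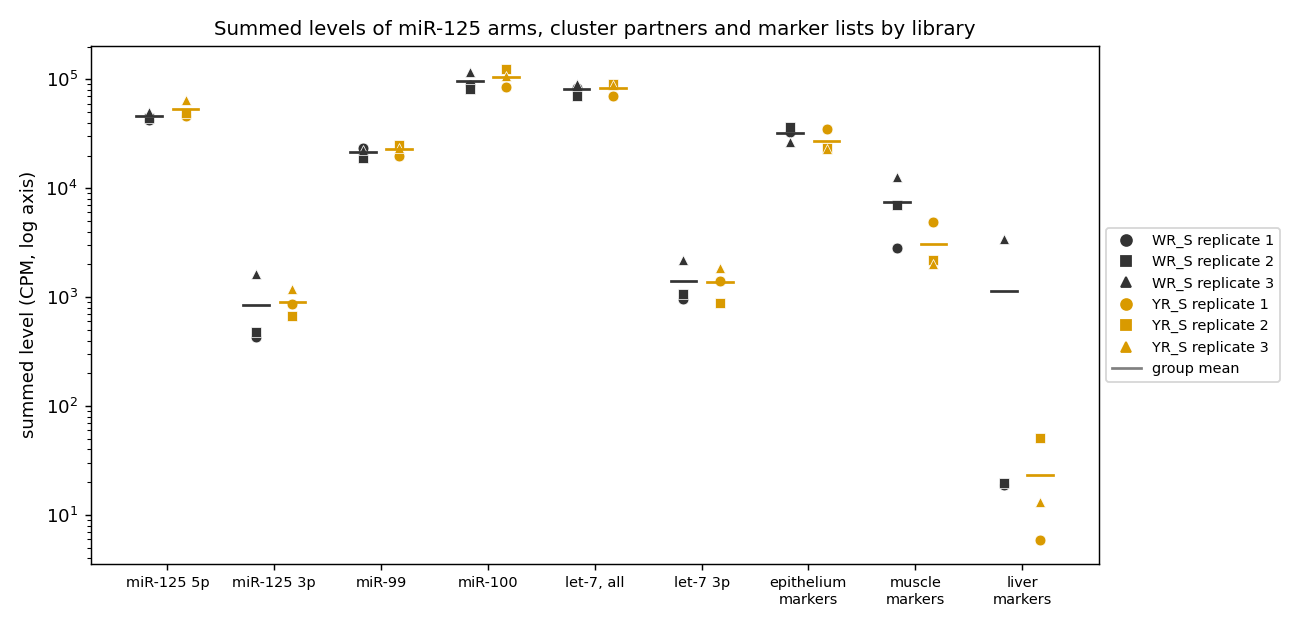
Summed level in CPM on a log axis of the miR-125 arms, the cluster partners and marker lists, with 1 point per library and a line at each group mean. The miR-125 5p arm, miR-99, miR-100 and let-7 lie within narrow bands, while WR_S replicate 3 is the highest library for the miR-125 3p arm (1619 CPM), let-7 3p (2179 CPM), muscle (12616 CPM) and liver (3404 CPM).

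The entries whose levels followed ssa-miR-125a-5p most closely over the 6 libraries, among 247 other entries averaging at least 100 CPM, were ranked by Pearson's r of log2(CPM + 1). They were ssa-miR-199a-5p (r = 0.954), an miRNA of mesenchymal cells, ssa-miR-210-5p (0.915), whose family is induced by hypoxia in mammals, and ami-miR-204-2-3p_R+1 (0.878), from the 3p arm of miR-204. ssa-miR-145-3p_L+2R-1 (0.809), from an miRNA of smooth muscle, and ola-miR-92a_R+2_2 (0.803), of the miR-17-92 group, came next. All 6 points share their libraries and scaling. These values of r were picked as the largest of 247, each from 6 points, and none was tested. YR_S replicate 3 held the highest level of both ssa-miR-125a-5p (18369 CPM per entry) and ssa-miR-199a-5p (87377 CPM).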

How the data were processed

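Small RNA of 6 dorsal skins was sequenced single-end from TruSeq small RNA libraries on an Illumina HiSeq instrument. The authors filtered tags with ACGT101-miR, matched them to miRBase and predicted further candidates with Mireap, with settings that the study does not state. They deposited, as the authors' raw columns, an estimated count per entry and library, in which reads shared by several entries appear divided: 15 of the 22 members held a value that was not whole (tolerance 1e-06). The sum of both entries with 1 added T was whole in 6 of 6 libraries, and that of the 3 CTAAC entries in 1 of 6, so the rule of division is not known and the summed levels assume it. The normalized values (6 columns), group means, fold changes and p-values of the authors were not used, and 1 line that named no miRNA was left out.

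Counts were rounded and entries kept when 3 or more of the 6 libraries were above 0, then tested with edgeR's quasi-likelihood test (TMM scaling, Benjamini-Hochberg over the 1085 entries, two-sided). SE was taken as |log2 fold change| / sqrt(F), and the biological coefficient of variation came to 0.469. The fit was tested on simulated data. Floors and CPM of 3 counts cover counting error only. The p-values reflect only how the 3 libraries of a group vary, with the spread of each entry moderated by that of all entries tested. No pair of libraries of a group agreed within sampling noise (chi-square per degree of freedom at least 76.9).

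DESeq2, which the study used, was an alternative. Named entries were all members, those averaging at least 10 CPM with every library, the leading entry of each partner and the 5 entries most like the leading member. The members, lists and marker lists were chosen with earlier results of these data known. The erythrocyte (7 entries, 33.5 to 309 CPM) and leukocyte (15 entries, 968 to 1672 CPM) markers overlapped between the groups. Sequences are those of the deposited table, and genome positions were not analysed here. Tools were R 4.3.3, edgeR 4.0.16, DESeq2 1.42.0, limma 3.58.1, Python 3.11.15 and scipy 1.17.1. Alternatives were DESeq2, RLE scaling, total counts, other filters, limma-trend, a replicate block, merged duplicates and each library left out.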

Additional observations from a re-analysis of the deposited data

How the results depend on the processing

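The 17 member entries averaging at least 10 CPM held 12 distinct count patterns, for which 15 alternatives gave 180 log2 fold changes. In none did one pass an adjusted p below 0.05 (smallest 0.358 in edgeR), 157 values kept their direction, and 23 values of 7 patterns changed sign. With single libraries left out, oni-mir-125b-2-p3 ran from -0.23 (without WR_S replicate 1) to 1.23 (without WR_S replicate 3), ssa-miR-125a-2-3p from -0.47 to 0.85, ssa-miR-125a-3p from -0.34 to 0.30, ssa-miR-125b-2-3p_L+1 from -0.096 to 0.63 and ssa-miR-125b-1-3p_R+1_1ss6TC from -0.36 to 0.054, each highest without WR_S replicate 3. Over the same fits ssa-miR-125b-5p_R-1 ran from -0.31 to 0.090, highest without YR_S replicate 2, and dre-miR-125b-5p_L+2 from -0.17 to 0.14. The scarce dre-miR-125b-5p_L+2 was also -0.071 with identical counts once, -0.077 with identical sequences summed, -0.0057 without a filter and -0.044 with total counts. In limma-trend ssa-miR-125a-2-3p was 0.22 and ssa-miR-125a-3p 0.030. The cause of these changes was not tested.

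The log2 fold change of ssa-miR-125a-5p (0.29) kept its sign but was 0.15 with identical sequences summed and 0.18 with total counts. With single libraries left out it ran from 0.05 (without YR_S replicate 3) to 0.32 (without YR_S replicate 2). With single libraries left out, the log2 ratio of the family total (0.22) was 0.06 to 0.31, that of the 5p total (0.23) 0.06 to 0.32, and that of the 3p total (0.10) -0.21 to 0.99, highest without WR_S replicate 3. The 3p share of the family (difference -0.07 percentage points) ran from -0.44 to 0.61 and the TTAAC share (-3.40) from -4.94 to -1.91.

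Over all entries, 0 passed the adjustment in edgeR and 36 in DESeq2. At the study's thresholds there were 89, but 55 where a mean of 10 counts was required, and 56 (without WR_S replicate 2) to 106 with single libraries left out. Deviations of same-numbered libraries correlated at 0.249, -0.017 and 0.346, and those of other-numbered libraries at -0.300 to 0.150. These values do not settle whether the numbers mark pairs. The main fit did not take them as pairs, and the replicate block was an alternative. With the replicate block 0 entries passed the adjustment and 77 the study's thresholds, and ssa-miR-125a-2-3p became 0.21 and ssa-miR-125a-3p 0.025. YR_S replicate 1 was the shallowest library and limits the scarce members.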
